A study of Mus musculus with 31 samples.

Results

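The comparison described here set hippocampal RNA of 3 Glud1 transgenic (Tg) mice against that of 3 wild-type (wt) mice at 20 months, the oldest age of a series of 31 arrays that followed both genotypes over 5 ages (10 days, 4.5, 9, 14.5 and 20 months). Its 6 arrays, 1 mouse each, were chosen by the genotype and age in the labels, and all mice were C57BL/6 males. Tg mice carry extra Glud1, the mouse gene of the mitochondrial enzyme glutamate dehydrogenase, in neurons only, and the study describes them as a model of lifelong moderate excess of glutamate release. The wt mice were matched for age and strain, and neither group received a treatment. RNA came from homogenized whole hippocampus and was hybridized to Affymetrix mouse genome arrays, so that fewer cells of a type and less RNA per cell cannot be told apart. The question was which transcripts differ between the genotypes in old age.

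Glutamate dehydrogenase interconverts glutamate and 2-oxoglutarate, and more glutamate at synapses raises the activity of the neurons that receive it. Neuronal activity switches on immediate early genes such as Egr1 and Fos, which encode transcription factors, within minutes. A second set of genes that follows a daily rhythm in most tissues, the hippocampus included, is the circadian clock: the activators CLOCK and BMAL1 (gene Arntl) bind E-boxes (CACGTG) and turn on Per, Cry, Nr1d and the output gene Dbp, whose transcripts cycle out of phase with that of Arntl. Chaperones of the endoplasmic reticulum (ER), such as Hspa5 and Calr, fold secreted and membrane proteins and share a promoter element through which ER stress raises them.

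Levels below are log2 signals after quantile normalization, a difference is the log2 fold change of Tg over wt ± SE, and p-values come from limma with Benjamini-Hochberg adjustment over 26877 probe sets. At 20 months 6 of the 26877 probe sets (0.0223%) passed at a fold of 1.3 or more with an adjusted p no higher than 0.01, 5 higher and 1 lower in Tg. At an adjusted p under 0.05 with no fold limit 7 passed (0.026%). These 7 represent Dbp (2 probe sets), Ciart, Egr1, Sema6c, Pnmt and a probe set that is listed for several genes and is not named. At an unadjusted p under 0.05 there were 1199 probe sets, against 1344 that chance alone would give. Counted by gene, 4 of 12844 genes were higher (0.0311%) and 1 was lower (0.00779%) at an adjusted p under 0.05. The median log2 fold change of all genes was -0.00028, and the percentiles 5 and 95 were -0.35 and 0.33.

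The arrays were alike in quality. The ratio of 3′ to 5′ signal of Gapdh ranged from -0.46 to -0.44 (log2) in Tg mice and from -0.46 to -0.43 in wt mice, and that of beta-actin from 0.51 to 0.54 in Tg mice and from 0.51 to 0.55 in wt mice (exact permutation p = 0.90 and 0.70, two-sided, where 3 against 3 mice cannot go below 0.10). Correlations across probe sets were 0.966 to 0.976 between Tg mice and 0.966 to 0.975 between Tg and wt mice. Markers of neurons (Snap25, Rbfox3, Camk2a) and of hippocampal subfields (Prox1, C1ql2, Wfs1, Fibcd1, Grik4) each had a signal above that of at least 69.4% of the probe sets on every array at 20 months, or 59.96% for Grik4. The Glud1 probe sets, by the study's account, lie in a 3′ untranslated region that the transgene lacks and so do not check the genotype. Glud1 measured 12.58, 12.59 and 12.60 in Tg mice and 12.58, 12.52 and 12.46 in wt mice, a difference of 0.07 ± 0.07 with overlapping groups.

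Markers of tissue next to the hippocampus varied between mice, and for the choroid plexus this did not follow genotype. Kcnj13, a potassium channel of the choroid plexus, measured 11.14, 10.99 and 7.85 in Tg mice and 8.60, 11.19 and 10.92 in wt mice. Folr1, a choroid plexus folate receptor, measured 10.78, 10.39 and 6.82 in Tg mice and 7.68, 10.81 and 10.79 in wt mice. The third Tg mouse and the first wt mouse were thus low and the other 4 mice high, and 0 of the 18 choroid plexus and ependymal markers passed limma's adjusted p under 0.05 (0 at an unadjusted p under 0.05). The third Tg mouse also had more of markers of the habenula, a nucleus beside the hippocampus. Gpr151, the gene of an orphan receptor of habenular neurons, measured 5.70, 5.59 and 9.29 in Tg mice and 5.27, 5.42 and 5.00 in wt mice. Every Tg mouse thus lay above the highest wt mouse for Gpr151. The 15 thalamus and habenula markers tested had a median difference of 0.16, with 12 above 0 and 3 below. With 1 mouse left out this median ran from 0.05 to 0.40, and 0 of the 15 passed limma's adjusted p under 0.05.

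Dbp, a transcription factor that the clock drives and that passes the daily rhythm on to other genes, gave the smallest adjusted p of the comparison, at its second probe set. Its brighter probe set measured 11.64, 11.53 and 11.43 in Tg mice and 10.40, 10.46 and 10.54 in wt mice. Every Tg mouse lay above the highest wt mouse, and the difference was 1.07 ± 0.13, a fold of 2.10 (adjusted p = 9.57e-05). The second, dimmer Dbp probe set gave 1.05 ± 0.12 (adjusted p = 2.57e-05), close to the first in direction and size.

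Ciart, which encodes a repressor of CLOCK and BMAL1, measured 8.74, 8.75 and 8.57 in Tg mice and 7.73, 7.80 and 7.68 in wt mice. It rose by 0.95 ± 0.15 with no overlap (fold 1.93, adjusted p = 0.00318). Egr1, the zinc finger factor that synaptic activity induces, measured 12.96, 13.07 and 12.84 in Tg mice and 12.29, 12.26 and 11.90 in wt mice. Its rise was 0.81 ± 0.13 (fold 1.75, adjusted p = 0.00905). Without the first Tg mouse, the second Tg mouse or the third wt mouse its adjusted p was 0.0748, 0.118 and 0.168, and without trend and robust moderation of the fit 0.0534, while the difference stayed between 0.69 and 0.88 in every alternative run.

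Pnmt, which encodes the enzyme that converts noradrenaline to adrenaline, was the only gene of 12844 that fell at an adjusted p under 0.05. It measured 5.17, 4.60 and 4.88 in Tg mice and 7.01, 8.28 and 6.98 in wt mice, a change of -2.54 ± 0.32 (0.172 of the wt level, adjusted p = 9.57e-05). All 3 Tg values lay below the median of the array, which was 6.84, whereas the 3 wt values lay above it. With an offset of 50 added to the signals before log2, which shrinks changes at low signal, the difference was -1.49 (adjusted p = 0.00297). Sema6c, a transmembrane semaphorin of axon guidance, measured 7.24, 7.32 and 7.65 in Tg mice and 6.10, 5.69 and 6.54 in wt mice. Its difference of 1.29 ± 0.24 (adjusted p = 0.0363) passed only the lenient threshold. A second, dimmer Sema6c probe set gave 0.42 ± 0.57 and overlapped between genotypes, and leaving out any mouse but the third wt mouse lost its call, at an adjusted p of 0.0828 to 0.30. The call was also lost with the offset (adjusted p = 0.237) and without trend and robust moderation (adjusted p = 0.0921).

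**Figure D1:**
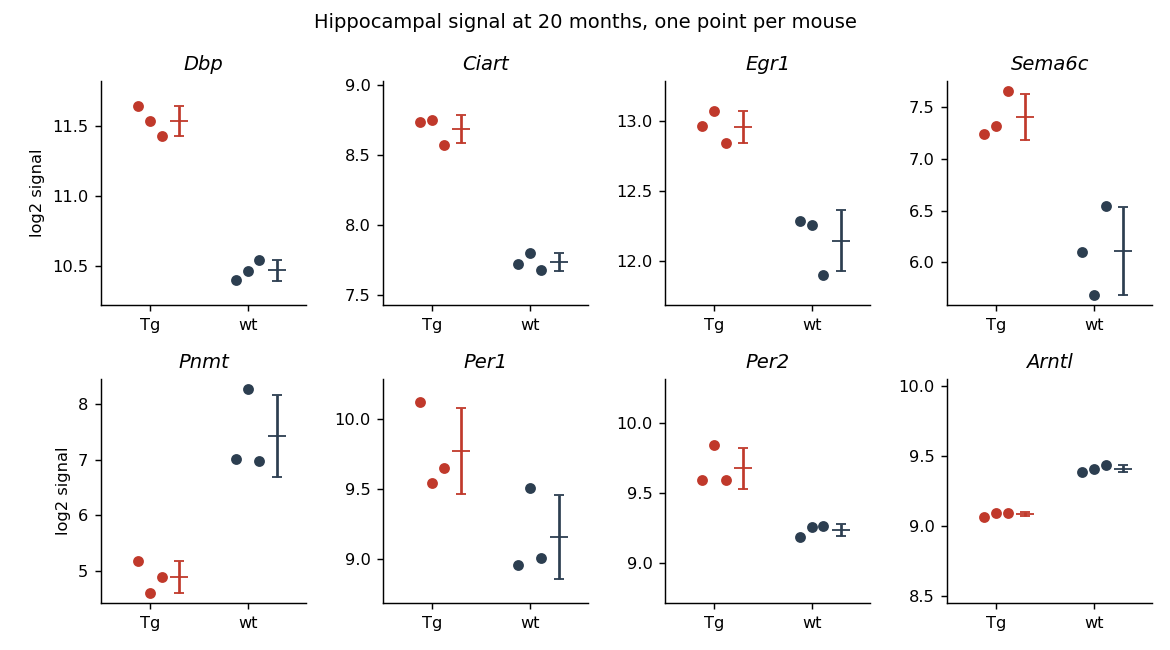
Log2 signal (y axis, not starting at 0) of 8 genes in each mouse at 20 months, Tg left and wt right. Points are mice and the horizontal mark with bars is the mean ± SD (n = 3 each). The 3 Tg mice lie above the 3 wt mice for Dbp, Ciart, Egr1, Sema6c, Per1 and Per2 and below them for Pnmt and Arntl.

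**Figure D2:**
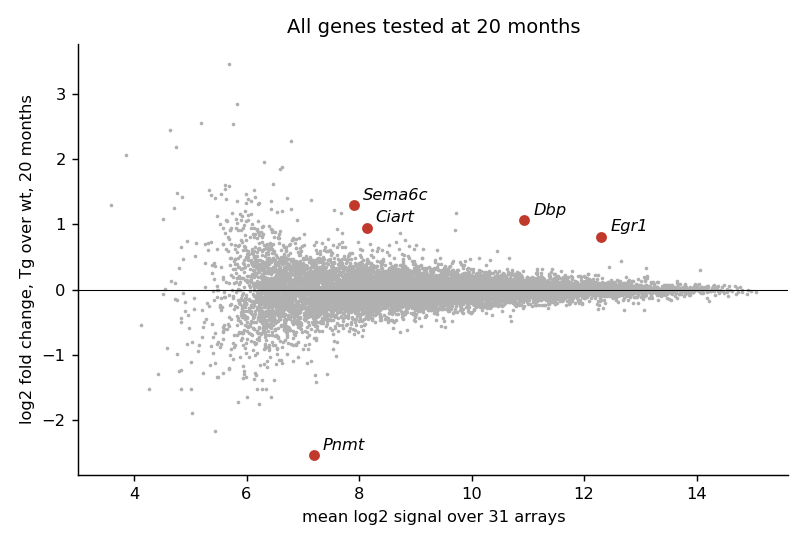
Log2 fold change of Tg over wt at 20 months (y axis) against the mean log2 signal over all 31 arrays (x axis), 1 point for each of 12844 genes. The 5 genes at an adjusted p under 0.05 are in red and named. Dbp at 1.07 and Egr1 at 0.81 stand clear of genes of similar signal, and the spread of unnamed genes is wide at low signal.

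The calls rested on a spread estimated over all 10 groups of genotype and age. When the 6 arrays at 20 months were fitted alone, 1 probe set passed at a fold of 1.3 and an adjusted p of 0.01 (the brighter one of Dbp), and the adjusted p was 0.104 for Ciart, 0.106 for Egr1 and 0.292 for Pnmt. With 1 mouse left out, both Dbp probe sets and Pnmt were called each time at this threshold, and 3 probe sets in all were called without the first Tg mouse or without the third wt mouse. Ciart kept an adjusted p under 0.05 in all 6 of these fits (0.0105 to 0.0457).

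The clock genes as a group were considered next. Of 24 genes tested from a list of 28 clock and clock output genes, 2 rose (Dbp and Ciart) and 0 fell at limma's adjusted p under 0.05, and 8 passed at an unadjusted p under 0.05 (6 higher, 2 lower). Over all genes 2.36% were higher and 2.48% lower at that unadjusted p. The 3 Tg mice lay above the 3 wt mice for 9 of the 24 and below them for 2. Among all genes 6.01% lay wholly above and 6.18% wholly below. The list's median difference was 0.11, and 19 of 24 members were above 0. With 1 mouse left out the median ran from 0.08 to 0.22, the latter without the first wt mouse. Relative to each gene's mean over the 6 mice, list medians of single mice overlapped between genotypes. They were 0.03 to 0.10 in Tg mice and -0.13 to 0.05 in wt mice.

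Among the E-box targets of the negative limb, Per1 measured 10.12, 9.54 and 9.65 in Tg mice and 8.96, 9.50 and 9.00 in wt mice, a difference of 0.61 ± 0.17 (adjusted p = 0.71). Per2 measured 9.59, 9.84 and 9.59 in Tg mice and 9.19, 9.26 and 9.26 in wt mice, a difference of 0.44 ± 0.18. Both Period genes encode partners of the cryptochromes that repress CLOCK and BMAL1, and neither passed the adjustment. Per3 differed by 0.20 ± 0.16 with overlapping groups, Cry2 by 0.09 ± 0.07 and Cry1 by 0.08 ± 0.20.

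On the opposite arm, Arntl measured 9.07, 9.09 and 9.09 in Tg mice and 9.38, 9.41 and 9.43 in wt mice. The groups did not overlap and the difference was -0.32 ± 0.12 (unadjusted p = 0.0131, adjusted p near 1). Clock, the gene of its partner, differed by -0.09 ± 0.14. The nuclear receptor genes Nr1d2 and Nr1d1, which encode repressors of Arntl, differed by 0.25 ± 0.09 without overlap and by 0.32 ± 0.26 with overlap. The other PAR-domain factors beside Dbp were close between genotypes, Tef at 0.09 ± 0.06 and Hlf at 0.01 ± 0.13. Tspan4, a tetraspanin on the list, differed by 0.49 ± 0.20. Timeless had the most negative value of the list, -1.64 ± 0.48, but all 6 of its signals lay below the array median. The time of day at which the mice were killed is not given in the sources used here.

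The E-box is where CLOCK and BMAL1 act, so the promoters of clock genes were searched for CACGTG, which reads the same on both strands. The motifs here and below were chosen with the values known. RefSeq promoter windows (GRCm38.p6, 250 bases before to 50 after the annotated start) were matched for 20 of the 24 genes. The E-box was in a window of 5 of them, Ciart, Per1, Tef, Cry1 and Tspan4, and in 2349 of all 32851 windows (7.15%). Counted by gene, as the 5 are, it was in a window of 2187 of all 27025 genes. Ciart held 3, at -116, -58 and -44 from the start, and Per1 held 1, at -166. The windows of Ciart (chr3:95882179-95882478, minus strand) and of the upstream Per1 start (chr11:69098699-69098998, plus strand) are shown because Ciart, called here, and Per1, a well-known E-box target, both carry it, with the E-boxes in capitals.
Ciart: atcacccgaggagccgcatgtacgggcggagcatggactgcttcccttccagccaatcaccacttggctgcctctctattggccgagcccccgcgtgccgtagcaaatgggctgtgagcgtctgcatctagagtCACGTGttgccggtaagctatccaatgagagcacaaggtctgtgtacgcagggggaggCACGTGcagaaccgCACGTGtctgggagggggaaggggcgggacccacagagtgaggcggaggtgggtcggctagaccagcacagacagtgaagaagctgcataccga
Per1: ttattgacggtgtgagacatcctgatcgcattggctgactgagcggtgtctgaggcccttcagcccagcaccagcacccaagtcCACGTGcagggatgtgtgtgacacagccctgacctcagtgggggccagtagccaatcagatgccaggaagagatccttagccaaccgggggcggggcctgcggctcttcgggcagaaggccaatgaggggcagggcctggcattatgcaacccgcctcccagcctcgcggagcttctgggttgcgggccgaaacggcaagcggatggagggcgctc
The window of Dbp did not hold these letters. Of the 5 genes with an E-box in the window, 4 had Tg mice wholly above wt mice (Ciart, Per1, Tef, Tspan4), against 4 higher and 2 lower of the 15 without one. Tef counted among them although its difference was small. Among all genes 6.01% lay wholly above and 6.18% wholly below. The list and the motif were both chosen with values known, and the split was not tested. The D-box, the site of Dbp itself (TTATGTAA or TTACGTAA, both strands), was in the windows of Per3, which held 2, and Timeless, and in 347 of all windows (1.06%). By gene, 333 of all 27025 had it in a window. These 2 genes had a median difference of -0.72, with 1 wholly lower and 0 wholly higher in Tg mice. The lower of them was Timeless, whose signals all lay below the array median. The 18 matched genes without a D-box had a median of 0.11, with 8 wholly higher and 1 wholly lower.

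Activity-regulated genes were the other list with a called member higher in Tg mice. Of 39 immediate early and activity-regulated genes tested, Egr1 rose and 0 fell at limma's adjusted p under 0.05, and 11 passed at an unadjusted p under 0.05 (10 higher, 1 lower, against 2.36% and 2.48% of all genes). Tg mice lay wholly above wt mice for 12 members and wholly below for 2, against 6.01% and 6.18% of all genes. The median difference was 0.16, with 28 of 39 above 0, and Per1 belongs to this list too.

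Fos, the prototype of these genes, measured 11.24, 10.66 and 10.37 in Tg mice and 10.09, 9.68 and 8.95 in wt mice. The groups did not overlap, but the difference of 1.18 ± 0.51 was large beside a wide spread between mice (unadjusted p = 0.0296). Arc, whose product regulates AMPA receptor traffic at synapses, measured 10.75, 10.81 and 10.76 in Tg mice and 10.28, 9.81 and 9.50 in wt mice. The 3 Tg values were close together and above all wt values, a difference of 0.91 ± 0.48. Junb, which encodes a partner of Fos in the AP-1 factor, measured 9.47, 8.94 and 8.94 in Tg mice and 8.56, 8.47 and 8.28 in wt mice, a difference of 0.68 ± 0.25.

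The orphan receptor gene Nr4a1 differed by 0.59 ± 0.26, Dusp5, which encodes a phosphatase of ERK, by 0.70 ± 0.24, and Gadd45b, a gene of activity-dependent DNA demethylation, by 0.52 ± 0.25, all without overlap. Egr2 had the largest positive value, 1.40 ± 0.49, at signals of 7.67, 7.26 and 8.13 in Tg mice and 6.25, 6.43 and 6.18 in wt mice. Egr4 (0.63 ± 0.18) and Klf2 (0.68 ± 0.21) overlapped between genotypes in spite of their small p. Not all of the family moved one way. Egr3 measured 12.25, 12.20 and 12.29 in Tg mice and 12.60, 12.34 and 12.44 in wt mice, a difference of -0.22 ± 0.08, and Inhba, the gene of an activin subunit, was also wholly lower at -1.10 ± 0.72.

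Chaperones and genes of ER stress lay on the other side of 0. Of 47 tested, 0 passed limma's adjusted p under 0.05 in either direction. At an unadjusted p under 0.05, 9 passed (1 higher, 8 lower, against 2.36% and 2.48% of all genes). Tg mice lay wholly below wt mice for 11 of the 47 (23.4%, against 6.18% of all genes) and wholly above for 0. The median difference was -0.09, and 36 of 47 were below 0. In the alternatives and with each mouse left out in turn the median stayed between -0.11 and -0.06, and 0 members passed the adjustment.

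Calr, the gene of the calcium-binding lectin chaperone calreticulin, measured 12.66, 12.77 and 12.57 in Tg mice and 12.92, 13.06 and 12.95 in wt mice. Its 3 probe sets gave -0.31 ± 0.07, -0.38 ± 0.09 and -0.33 ± 0.07, all without overlap (lowest adjusted p = 0.176). Hspa5, the gene of BiP, the chief Hsp70 of the ER, measured 12.89, 13.13 and 12.88 in Tg mice and 13.15, 13.39 and 13.29 in wt mice. The groups were close but did not overlap, at a difference of -0.31 ± 0.11. One of its 2 other probe sets gave -0.50 ± 0.17 and the other -0.04 ± 0.13.

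Hsp90b1, the gene of the ER form of Hsp90, measured 12.42, 12.51 and 12.34 in Tg mice and 12.64, 12.69 and 12.82 in wt mice, a difference of -0.29 ± 0.11. Pdia6, a protein disulfide isomerase gene, measured 10.55, 10.88 and 10.64 in Tg mice and 11.02, 11.07 and 10.94 in wt mice, a difference of -0.32 ± 0.11. A second isomerase gene, Pdia3, was at -0.22 ± 0.09, and Sdf2l1, which encodes an ER cofactor of BiP, at -0.45 ± 0.20. Xbp1, which encodes a transcription factor of the unfolded protein response, was at -0.17 ± 0.09. These 7 genes did not overlap between genotypes. Edem1, a gene of ER-associated degradation, was the member that was higher at an unadjusted p under 0.05, at 0.31 ± 0.13 with overlapping groups. Of the cytosolic chaperone genes, Hspa8 was at -0.10 ± 0.06 and Hsp90aa1 at -0.13 ± 0.06. The most negative value of the list was -1.34 ± 0.68 for Trib3, a stress-induced pseudokinase gene, with overlapping groups and all 6 signals below the array median.

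The ER stress element (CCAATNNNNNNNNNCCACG, searched on both strands) was in the promoter windows of 8 of 38 matched members, Calr, Canx, Creld2, Dnajc3, Hsp90b1, Hspa5, Pdia6 and Syvn1, and in 39 of all 32851 windows (0.119%). By gene, 37 of all 27025 had it in a window. The windows of Hspa5 (chr2:34771840-34772139, plus strand), Pdia6 (chr12:17266339-17266638, plus strand) and Hsp90b1 (chr10:86705395-86705694, minus strand) are shown because these genes were among the lowest of the group. Capitals mark the element, which starts at -65 in Hspa5, at -98 in Pdia6 and at -212 and, on the opposite strand, -107 in Hsp90b1.
Hspa5: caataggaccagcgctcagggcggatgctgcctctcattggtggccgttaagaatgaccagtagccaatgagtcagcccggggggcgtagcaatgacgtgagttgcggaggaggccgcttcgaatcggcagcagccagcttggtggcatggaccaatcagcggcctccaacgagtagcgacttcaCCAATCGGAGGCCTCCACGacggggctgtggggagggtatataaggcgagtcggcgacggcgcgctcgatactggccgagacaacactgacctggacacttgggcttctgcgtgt
Pdia6: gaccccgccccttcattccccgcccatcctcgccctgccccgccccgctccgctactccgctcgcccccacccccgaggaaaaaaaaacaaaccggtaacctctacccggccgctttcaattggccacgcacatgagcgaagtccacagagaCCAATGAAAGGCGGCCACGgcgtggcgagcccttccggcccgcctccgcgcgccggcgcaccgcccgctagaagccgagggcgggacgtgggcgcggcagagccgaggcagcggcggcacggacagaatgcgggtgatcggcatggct
Hsp90b1: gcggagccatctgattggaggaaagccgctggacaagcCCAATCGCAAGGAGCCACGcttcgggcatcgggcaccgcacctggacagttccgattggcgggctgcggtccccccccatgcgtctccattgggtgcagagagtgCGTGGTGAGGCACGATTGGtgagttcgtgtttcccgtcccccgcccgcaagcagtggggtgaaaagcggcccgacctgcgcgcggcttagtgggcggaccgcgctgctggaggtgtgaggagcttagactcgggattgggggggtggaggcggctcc
The 8 members with the element had a median difference of -0.27, with 5 wholly lower in Tg mice, and the 30 matched members without it a median of -0.07, with 4 wholly lower. Over the whole array 14 tested genes had the element in a window, on or off the list. All 14 had a negative log2 fold change, from -0.35 for Alg12 to -0.04 for Syvn1, and 6 of them were wholly lower and 0 wholly higher in Tg mice. Over all genes, 6403 of 12844 were above 0, 6.18% wholly lower and 6.01% wholly higher. The 14 include the 8 list members above, and the element was chosen with their values known. Of those off the list, only Ero1b was wholly lower. These values share mice and were not tested as a set. A mostly negative sign was not limited to the oldest age. At 9 months all of the 14 but Hspa5 and Pan2 were negative, and at 10 days all but Pan2, Ero1b and Derl3. At 4.5 and 14.5 months the signs were mixed. The values at these other ages were not tested as a set either.

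**Figure D3:**
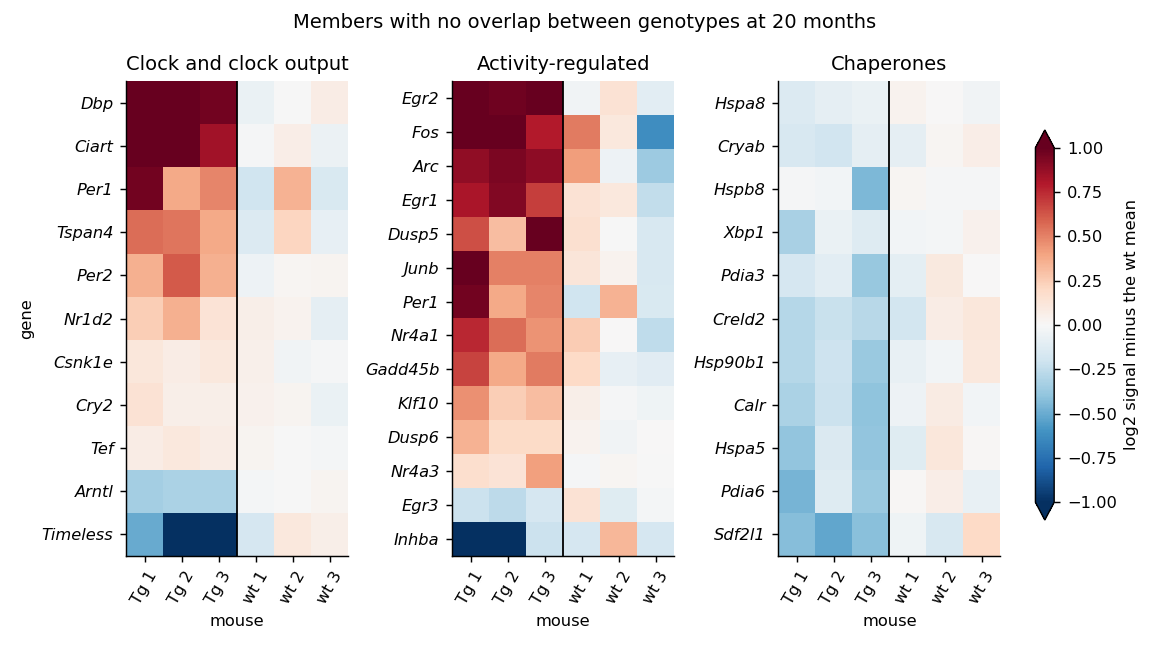
Log2 signal minus the mean of the 3 wt mice (colour, red above and blue below, saturated at 1) for each mouse at 20 months, Tg 1 to 3 left of wt 1 to 3. Rows are the members of the clock, activity-regulated and chaperone lists whose genotypes did not overlap. Clock and activity-regulated rows are mostly red in Tg mice, with Arntl, Timeless, Egr3 and Inhba blue, and all 11 chaperone rows are blue.

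The remaining genes named here are those of smallest p whose genotypes did not overlap and whose mean signal was above the median of tested probe sets. None passed the adjustment. On the higher side, Ifnar2, the gene of an interferon receptor chain, measured 9.53, 9.47 and 9.34 in Tg mice and 8.91, 8.73 and 8.69 in wt mice (0.67 ± 0.16, adjusted p = 0.293). The 10 others were Coq10b, Hnrnpdl, 2310022B05Rik, Ptprr, Cdv3, Gabbr1, Per1, Cdc42ep4, Hirip3 and Stambpl1, at differences of 0.20 to 0.62. Both probe sets of Coq10b, a gene of coenzyme Q function, gave 0.44, and Gabbr1, the gene of a GABA-B receptor subunit, differed by 0.20 ± 0.06, with its other probe sets at 0.06 and 0.09. Probe sets of 1 gene did not always go together: those of Hnrnpdl ran from -0.09 to 0.33 and those of Cdv3 from -0.24 to 0.35.

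On the lower side, Htra1, the gene of a secreted serine protease of astrocytes, measured 12.34, 12.34 and 12.51 in Tg mice and 12.74, 12.63 and 12.70 in wt mice. Its 2 probe sets gave -0.29 ± 0.08 and -0.35 ± 0.08. Stip1 (-0.25 ± 0.07), which encodes the co-chaperone that links Hsp70 to Hsp90, and Dnajb11 (-0.44 ± 0.14), which encodes an ER partner of BiP, also stood here beside Calr. Gpr17, a receptor gene of oligodendrocyte precursors, measured 9.11, 8.97 and 9.04 in Tg mice and 9.74, 9.59 and 9.45 in wt mice (-0.55 ± 0.17). The others were Dpy19l3, Hdac4, Thrsp, Thap7, Clns1a, Snrk, Gaa, Tmem50b and Meaf6, at differences of -0.56 to -0.20.

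Genes of transmitters were measured as a group because Pnmt belongs to them. Of 44 monoamine and neuropeptide genes tested, Pnmt fell and 0 rose at limma's adjusted p under 0.05, 4 passed at an unadjusted p under 0.05 (2 each way), and the median was 0.02. For this and the lists below, the shares of all genes at that unadjusted p were 2.36% higher and 2.48% lower. Crh, the gene of corticotropin-releasing hormone, measured 7.64, 7.80 and 7.25 in Tg mice and 8.75, 8.14 and 8.16 in wt mice, wholly lower at -0.78 ± 0.31 (unadjusted p = 0.0163). Tac2, a tachykinin gene with high expression in the habenula, measured 7.32, 7.31 and 10.46 in Tg mice and 7.08, 7.41 and 6.92 in wt mice. Its difference of 1.23 ± 0.52 rested on the third Tg mouse, the one with the highest Gpr151, and the other Tg mice lay within the wt range. Among 19 genes of the glucocorticoid response, 0 passed limma's adjustment and 2 passed at an unadjusted p under 0.05 (Per1 higher, Cdkn1a lower), with a median of 0.06.

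The families in which the study looked for effects of the transgene had median differences close to 0 at this age. For the same age the paper lists a voltage-gated channel category for genes lower in Tg mice and a synapse category for genes higher. Those categories came from genes called on other signal values and by a test that was not run here. The list medians given here are a different measure and do not test those categories. Among 35 voltage-gated potassium channel genes the median was -0.01, and 0 passed limma's adjusted p under 0.05, with 2 at an unadjusted p under 0.05. These were Kcna4, a fast-inactivating channel, which measured 8.59, 8.91 and 8.77 in Tg mice and 8.23, 8.33 and 8.41 in wt mice (0.44 ± 0.13, against 0.05 ± 0.23 at its second probe set), and Kcnip2, the gene of a Kv4 subunit (-0.28 ± 0.11). Among 27 sodium, calcium and HCN channel genes the median was 0.04 and 0 passed, adjusted or not. Cacna1a, the pore of P/Q-type calcium channels, was at -0.41 ± 0.23.

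For the synapse, the medians were -0.0040 over 48 release genes, -0.04 over 43 glutamate receptor and postsynaptic genes, and -0.03 over 17 GABA genes. None passed limma's adjustment, and 2, 3 and 1 passed at an unadjusted p under 0.05. Rab3a, a vesicle GTPase gene, was at -0.16 ± 0.07, Camk2g, a calmodulin kinase gene, at 0.20 ± 0.08, and Grm7, a presynaptic glutamate receptor gene, at -0.24 ± 0.10. Glutamate metabolism and uptake, the pathway of the transgene itself, had a median of 0.03 over 27 genes with 0 passing, adjusted or not. Got2, the mitochondrial aspartate aminotransferase that acts beside glutamate dehydrogenase, measured 12.85, 12.84 and 12.85 in Tg mice and 12.70, 12.81 and 12.66 in wt mice, wholly higher at 0.13 ± 0.06.

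The 71 oxidative phosphorylation subunits had a median of -0.02 and ran from -0.30 to 0.13, with 0 passing, adjusted or not. The ubiquitin list ran from -1.52 (Ube2c, all 6 signals below the array median) to 0.18 and the proteasome list from -0.14 to 0.51. Mitochondrial import and carrier genes (46, median 0.01) included Timm50 and Timm22, inner membrane translocase genes, at -0.37 ± 0.15 and -0.23 ± 0.11. Glycolysis and TCA cycle genes (40, median 0.01) included Pfkp at -0.17 ± 0.07. The 59 ubiquitin pathway genes had a median of -0.01 and the 39 proteasome genes one of 0.03, and Psma7 and Psmd2 of the proteasome were at 0.15 ± 0.07 each. None of these genes passed limma's adjustment, and 2 import, 1 glycolysis and TCA, 0 ubiquitin and 2 proteasome genes passed at an unadjusted p under 0.05.

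Stress, structural and immune lists were likewise without a call. Medians were 0.01 over 39 antioxidant, -0.03 over 32 apoptosis, 0.01 over 57 cytoskeletal, 0.01 over 62 axon growth and adhesion, 0.0014 over 37 interferon and MHC class I, and 0.01 over 38 ribosomal protein genes. At an unadjusted p under 0.05 there were 1, 2, 1, 5, 0 and 0 of them. Nlgn2, the gene of an adhesion molecule of inhibitory synapses, measured 10.99, 10.99 and 11.01 in Tg mice and 10.87, 10.81 and 10.71 in wt mice (0.20 ± 0.07). Dffa, which encodes the inhibitor of a nuclease of apoptosis, was wholly lower at -0.37 ± 0.12, and Tubb4a, a neuronal and oligodendroglial tubulin gene, wholly higher at 0.19 ± 0.07.

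The 68 tested of 80 genes that the paper names as differing between the genotypes were chosen on these and the other arrays of the series and are not independent evidence. At 20 months 0 of them passed limma's adjusted p under 0.05 and 3 passed at an unadjusted p under 0.05. The median was 0.0036. Nlrx1, the gene of a mitochondrial regulator of innate immunity, had the smallest p among them and lay between 6.97 and 7.60 in the 3 Tg mice and between 7.68 and 8.08 in the 3 wt mice (-0.62 ± 0.18).

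No marker of a cell type passed limma's adjusted p under 0.05. The median was -0.0041 over 12 neuronal, -0.03 over 16 astrocytic, 0.06 over 21 oligodendroglial and 0.02 over 35 microglial and complement genes, with 0, 1, 1 and 0 of them at an unadjusted p under 0.05. Gfap, the intermediate filament of astrocytes, measured 11.26, 11.37 and 11.16 in Tg mice and 10.93, 11.06 and 10.97 in wt mice, and its 3 probe sets gave 0.28 to 0.29 (adjusted p near 1). Interneuron markers had a median of -0.15 over 16 genes (-0.03 without the third Tg mouse, -0.07 without the first wt mouse and -0.22 without the second Tg mouse). Of the 16, 11 were below 0 and 5 above, up to 0.24, and 2 passed at an unadjusted p under 0.05, both lower. Lhx6, a factor of interneuron development, was wholly lower at -0.38 ± 0.15, and Vip was at -0.36 ± 0.14 with overlap. The blood list had 4 genes tested, 3 above 0 and 1 below. Its neutrophil genes, S100a9 and Ngp, were wholly higher in Tg mice at 2.45 ± 1.12 and 1.14 ± 0.51, at signals mostly below the array median. Alas2 of the same list went the other way, at -0.44.

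**Figure D4:**
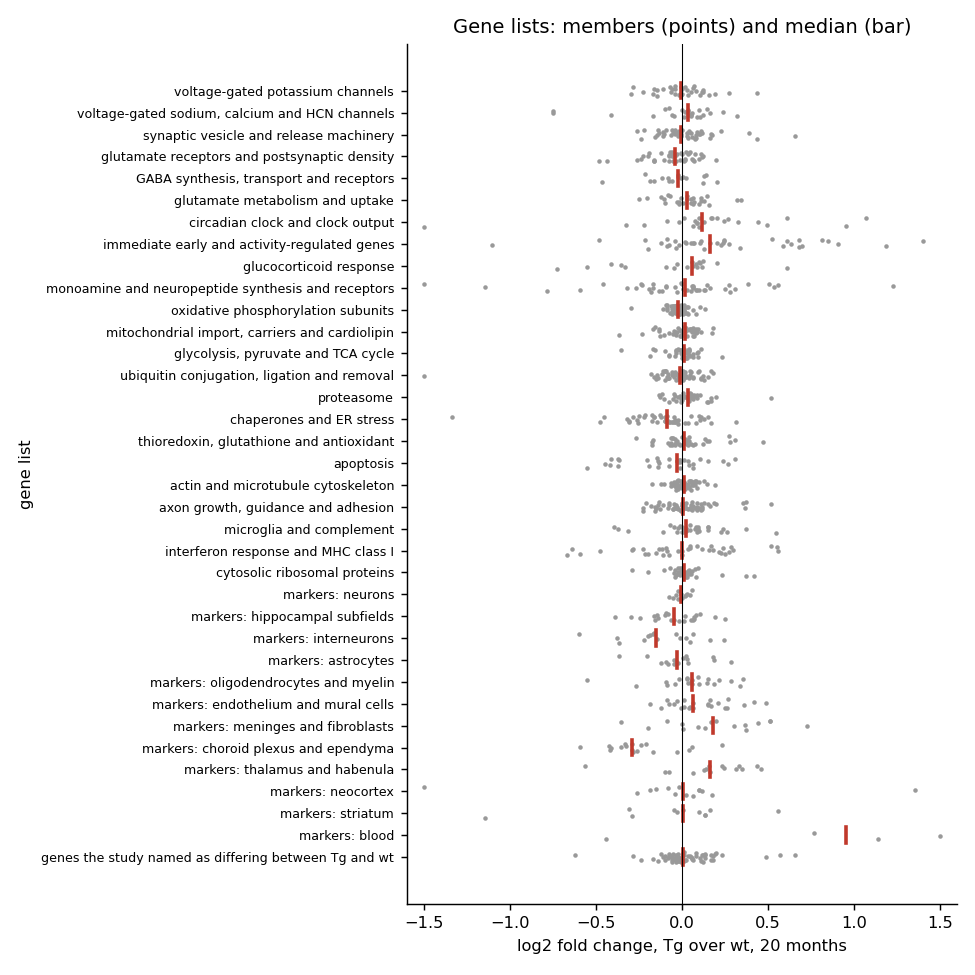
Log2 fold change of Tg over wt at 20 months (x axis) for the members of each gene list (grey points, those beyond 1.5 drawn at 1.5) with the median of the list (red bar). The clock and activity-regulated medians lie at 0.11 and 0.16, the chaperone median at -0.09, and the channel, synapse, mitochondria and ubiquitin lists lie around 0. Medians of other tissues lay as far from 0 as these or further, at 0.18 for meninges, 0.16 for thalamus and habenula, -0.29 for choroid plexus and 0.95 for blood. The choroid plexus list holds markers that varied between mice within both genotypes, and the blood list holds 4 tested genes.

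Whether these differences were particular to 20 months was tested by setting the genotype difference at 20 months against that at 14.5 months, whose arrays are separate. At an adjusted p under 0.05, 2 of 26877 probe sets (0.00744%) differed, 1 each for Dbp and Pnmt. The dimmer probe set of Dbp differed between the genotypes by 1.05 at 20 months and by 0.02 at 14.5 months, a change of 1.03 ± 0.17 (adjusted p = 0.0144). Its brighter probe set gave 1.02 (adjusted p = 0.0843). Pnmt gave -2.54 at 20 months and 0.23 at 14.5 months, a change of -2.77 ± 0.45 (adjusted p = 0.0144). Both calls were lost in the fits without trend and robust moderation, with mice of the same number as a block, and without the second Tg mouse, where 662 to 702 probe sets passed at an unadjusted p under 0.05. The Dbp call was also lost without the first Tg, the first wt or the third wt mouse, and the Pnmt call with an offset of 50 and without the second wt mouse.

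Against the mean of the other 4 ages, 3 of 26877 probe sets (0.0112%) differed, both of Dbp (1.02 ± 0.13 and 0.96 ± 0.15, adjusted p = 0.000296 and 0.00504) and that of Pnmt (-2.68 ± 0.35, adjusted p = 0.000296). Next by p came Ciart (0.82, adjusted p = 0.159), Cdca3, a cell cycle gene of low signal (2.94, adjusted p = 0.174), Egr1 (0.72, adjusted p = 0.19) and Cdv3 (0.33, adjusted p = 0.233) on the higher side. On the lower side Mycl, Gpr161, Pfdn1 and Nlrx1 had adjusted p of 0.568 to 0.747. For Ciart and Egr1 the difference at 20 months was thus called and its distinction from other ages was not.

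The levels at each age show which group stood apart. For Pnmt the Tg mice at 20 months lay below all 28 other arrays, whose lowest value at another age was 6.73. For Dbp it was the wt mice at 20 months, which were lower than every adult mouse at another age and whose mean of 10.47 ± 0.07 (SD, n = 3) compared with 11.32 ± 0.19 in wt mice at 14.5 months, while Tg mice averaged 11.53 ± 0.11 at 20 and 11.36 ± 0.19 at 14.5 months. For Ciart neither group at 20 months was apart from all other ages, with 8.69 ± 0.10 in Tg and 7.74 ± 0.06 in wt mice at 20 months and 8.43 ± 0.09 in Tg and 8.44 ± 0.18 in wt mice at 14.5 months, and 7.92 ± 0.29 in Tg and 7.65 ± 0.10 in wt mice at 9 months. Ciart and Per1 also moved with age in both genotypes together, Per1 averaging 10.09 in Tg and 9.96 in wt mice at 4.5 months and 9.12 in Tg and 9.02 in wt mice at 9 months. For Sema6c the wt mice at 20 months, at 5.69 to 6.54, lay below all other arrays, of which the lowest at another age was 7.30. Among the chaperone genes the group that stood apart varied. For Hspa5 the wt mice at 20 months, at 13.15 to 13.39, lay above every array of another age, the highest being 12.97. For Calr the Tg mice at 20 months, at 12.57 to 12.77, lay below all 28 other arrays, and for Hsp90b1 neither group was apart.

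The group medians differed between ages as well. The activity-regulated list had a median genotype difference of -0.02 at 10 days, 0.05 at 4.5 months, 0.30 at 9 months, 0.02 at 14.5 months and 0.16 at 20 months. The clock list was at -0.03, 0.02, 0.01, -0.01 and 0.11 and the chaperone list at -0.07, 0.04, -0.03, -0.01 and -0.09 at the same ages. No test was made of these medians.

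**Figure D5:**
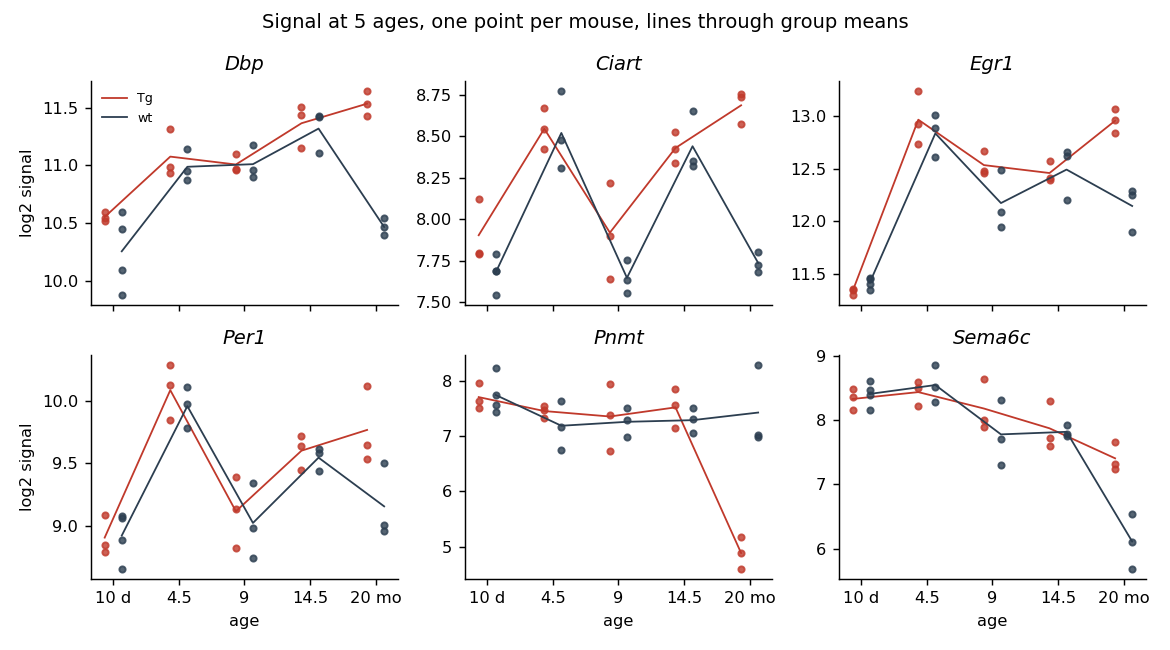
Log2 signal (y axis) at 5 ages (x axis, 10 days to 20 months), 1 point per mouse with Tg left and wt right at each age and lines through the group means. The genotypes separate at 20 months for Dbp, where wt mice are below the other adult groups, and for Ciart, where wt mice are at about their level at 9 months. Pnmt is low in the Tg mice at 20 months, and Sema6c is lowest in the wt mice at 20 months.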

How the data were processed

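RNA of the hippocampus of 31 mice was hybridized to 31 arrays by the authors, 3 mice per genotype and age (4 wt at 10 days). The deposited values are linear MAS5 signal intensities, 1 per probe set and array, which the authors had scaled per array. The methods describe RMA values, which were not used here. The files hold no detection calls, so whether a low signal is above background was not tested. The number of arrays limits the precision. The limma p-values set a difference against the spread between single mice within groups, pooled over the 10 groups.

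Of 45101 probe sets, 64 controls were left out. After log2 transformation the intensities of the 31 arrays were quantile normalized together. Probe sets above the array median on 3 or more arrays (26877) were fitted with limma 3.58.1 (R 4.3.3), with a mean for each of 10 groups and empirical Bayes moderation with trend, robust, and Benjamini-Hochberg adjustment. The methods used SAM at each age alone, which was not run. A gene is shown by its brightest tested probe set listed for 1 gene (12844 genes). Data for the 31 arrays (26877 probe sets) were simulated at age means, with independent normal noise at the spread pooled over ages. Changes were set in Tg mice at 20 months. Recovered were 66 of 100 of 1 log2 unit and 86 of 100 of 2 units, with 1 false call. Unequal spreads between groups and effects shared by mice were not simulated, so real calls may be less reliable.

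Named genes were Glud1, the 15 largest changes in each direction (filled up by p where fewer passed), the 5 smallest p in each direction of the contrasts between ages, and the leading members of each list. The gene lists and members were chosen with earlier results of these data known. Alternatives were no quantile normalization, an offset of 50, no filter, a filter on the 6 arrays, no trend, a replicate block, the 6 arrays alone, other thresholds, the median over a gene's probe sets, and each mouse left out. The numbers 1 to 3 of the 20-month mice come from the titles.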

Additional observations from a re-analysis of the deposited data

Results flagged for a closer look

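The genotype difference differed between ages for Dbp and Pnmt, by a test of the difference itself. Against 14.5 months the change was 1.03 for the dimmer probe set of Dbp and -2.77 for Pnmt. Against the mean of the other 4 ages it was 1.02 and 0.96 for the 2 probe sets of Dbp and -2.68 for Pnmt. All 3 Tg mice lay above all 3 wt mice for Dbp and below them for Pnmt at 20 months. Groups of 3 mice are too small to mark single mice as far from the others.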

How the results depend on the processing

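The 6 probe sets called at 20 months became 4 to 6 under other normalizations, filters, moderation and thresholds (7 at an adjusted p under 0.05 alone), 1 when the 6 arrays were fitted alone, and 3 to 5 with 1 mouse left out. The difference from 14.5 months (2 probe sets) became 1 with the offset of 50, 0 without trend and robust moderation, 0 with the replicate block, and 0 to 2 with 1 mouse left out. The difference from the other ages (3 probe sets) became 3 to 5 with 1 mouse left out and stayed at 3 otherwise. Numbers did not pair the mice at 20 months (correlations of -0.08, 0.05 and -0.01 between mice of the same number). With the replicate block 4 probe sets were called at 20 months and 3 against the other ages, and the adjusted p was 0.176 for Ciart and 0.086 for Sema6c. Of 1299 values of named genes under alternatives, 1278 kept direction and side of the threshold, 17 lost the call (Sema6c, Egr1, Ciart and Pnmt) and 1 gained it (Cdca3). With 1 mouse left out, Foxj1 ran from -0.56 to 0.051, Nwd2 from -0.073 to 0.54 and Crb1 from -0.14 to 0.75, and so changed sign without the third Tg mouse (Foxj1, Nwd2) or the second wt mouse (Crb1). The median of the choroid plexus list ran from -1.06 to 0.58 with 1 mouse left out, that of the clock list from 0.08 to 0.22 and that of the activity-regulated list from 0.10 to 0.23 over all alternatives. The cause of these changes was not tested.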
